A study of Mus musculus with 6 samples.

Results

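Bcl6b, Lhx1, Pou3f1 and Egr4 are 4 transcription factor genes that were chosen by name, as known targets of 1 growth factor, from the 41053 gene names counted in each library. The samples were cultured spermatogonial stem cells of adult mice, the cells that sustain sperm production, profiled by directional RNA-seq of polyadenylated RNA. The 6 libraries represent 3 lines of wild-type genotype and 3 of the genotype labelled Ephb2-KO, numbered 1 to 3 in each group. Cells had received a plasmid for a green fluorescent protein by electroporation, with or without a guide RNA against the receptor gene Ephb2, and the lines are subclones of the sorted fluorescent cells. Each line is therefore 1 subclone and 1 library. In either group the lines numbered 1 and 2 had passage 20 and the line numbered 3 had passage 18, so passage and the number 3 cannot be told apart. The labels name StemPro-34 medium with supplements and growth factors, but not which factors, and they do not say whether feeder cells were present or whether same-numbered lines share a parent culture. P-values therefore measure the spread between these subclones.

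Glial cell line-derived neurotrophic factor, GDNF, is the growth factor on which self-renewal of spermatogonial stem cells depends. It binds the co-receptor GFRA1 and activates the receptor tyrosine kinase RET, whose signal passes through SRC family kinases, phosphoinositide 3-kinase with AKT, and the RAS to ERK cascade. In cultured spermatogonia, transcripts of these 4 factors are known to fall when GDNF is withdrawn and to rise when it is returned. Bcl6b is a zinc finger repressor related to BCL6, Lhx1 is a LIM-homeodomain factor, Pou3f1 (also called Oct6) is a POU-homeodomain factor, and Egr4 is an immediate early zinc finger factor whose loss makes male mice infertile.

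In GRCm38, Bcl6b spans chr11:70224128-70229798 and Lhx1 spans chr11:84518284-84525535, both on the minus strand. Pou3f1 spans chr4:124656807-124660655 on the plus strand as 1 exon, and Egr4 spans chr6:85511131-85513589 on the minus strand with 2 exons. No other counted gene overlaps any of the 4 on the same strand. RefSeq promoter sequence (GRCm38.p6) was matched for 2 of the 4, Egr4 and Lhx1. The 250 bases upstream of each start site are shown because all 4 factors were lower together at passage 18, as described below. They are written 5′ to 3′ on the gene's own strand, chr6:85513590-85513839 for Egr4 and chr11:84525535-84525784 for Lhx1, both on the minus strand. Capitals mark the core of the cAMP response element (TGACG, or CGTCA on the other strand), the TATA element (TATAA) and the CCAAT box (ATTGG on the other strand).
Egr4: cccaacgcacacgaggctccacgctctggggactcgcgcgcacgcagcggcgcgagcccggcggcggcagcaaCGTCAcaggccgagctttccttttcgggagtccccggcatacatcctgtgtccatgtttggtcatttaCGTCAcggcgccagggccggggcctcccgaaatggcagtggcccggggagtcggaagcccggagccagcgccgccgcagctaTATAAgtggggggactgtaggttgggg
Lhx1: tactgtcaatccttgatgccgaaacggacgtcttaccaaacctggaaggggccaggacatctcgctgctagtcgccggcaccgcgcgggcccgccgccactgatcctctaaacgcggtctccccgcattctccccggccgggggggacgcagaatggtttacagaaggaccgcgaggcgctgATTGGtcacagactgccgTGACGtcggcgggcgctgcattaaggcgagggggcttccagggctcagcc
The Egr4 window held 2 cAMP response element cores, at 177 to 173 and at 109 to 105 bases before the start, and a TATA element at 27 to 23 bases before it. The Lhx1 window held 1 such core at 50 to 46 bases before the start and a CCAAT box at 68 to 64 bases before it. Searched on both strands over 32851 RefSeq promoter windows of the same length, the core TGACG was present in 17.8%, TATAA in 22.8% and CCAAT in 33.8%. The full element TGACGTCA, which contains the core and was present in 1.55% of windows, had no match in these letters, nor had the ETS site CCGGAAG (6.91%), the EGR site GCGNGGGCG (4.7%) or the CArG box of serum response factor (1.47%). These matches are a description of letters, and the motifs were picked with both sequences in view.

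Total counts ranged from 21772404 to 34047758 per library. Levels are given as CPM, counts relative to library size after TMM scaling, and 3 counts equal 0.0803 CPM in the deepest library and 0.147 CPM in the shallowest. The targeted gene was looked at first: wild-type lines 1 to 3 had 21.3, 27.1 and 10.8 CPM of Ephb2, the lines labelled Ephb2-KO had 37.1, 16.5 and 13.4 CPM, and the transcript was therefore not lower under that label (log2 fold change 0.18, SE 0.50). That value turned to -0.40 without Ephb2-KO replicate 1 and to -0.11 without wild-type replicate 3. A guide-induced lesion in coding sequence need not lower the transcript, and the labels do not give the lesion, so this level neither bears the label out nor goes against it. Ephb2-KO is used below as the label of these lines. All 5 germ cell markers were present in every library (Ddx4, Dazl, Sall4, Zbtb16 and Lin28a), with Dazl, a germ cell RNA-binding protein gene, between 696 and 1382 CPM. Reads from 10 fibroblast markers made up 0.388% to 0.665% of counts in the 4 passage 20 libraries and 1.83% to 2.15% in the 2 passage 18 libraries. Sertoli and Leydig markers summed to 56.9 to 94.9 CPM over 10 genes, with the Sertoli receptor gene Fshr at 0 in all. Of these, Sox9 stood at 16.5 to 41.8 CPM, Wt1 at 16.1 to 37.3 CPM and Gata4 at 9.08 to 19.3 CPM. Endothelial markers summed to at most 15.5 CPM and macrophage markers to at most 20.6 CPM. The libraries numbered 1 stood apart in part of the spermatocyte markers. The meiotic synaptonemal complex gene Sycp1 had 668 and 1186 counts there and 0 to 5 counts in the other 4. Sycp3 (510 and 942 counts against 6 to 8) and Hormad1 (243 and 91 against 0) did likewise. Dmc1 differed little, at 12.0 and 13.8 CPM against 8.25 to 9.68 CPM, and Spo11 overlapped, at 1.71 and 1.18 CPM against 0.589 to 1.20 CPM. Together the 5 markers made up 0.00568% and 0.00830% of counts against at most 0.00106%.

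The 4 factors differed widely in level. Compared per length, as RPKM (CPM per kilobase of exon), Egr4 was the highest at 192 ± 104 (SD, n = 6 libraries), rank 248 of 24749 detected genes. Bcl6b followed at 9.23 ± 3.80 and rank 6249, then Pou3f1 at 1.22 ± 0.750 and rank 11983, and Lhx1 at 0.359 ± 0.209 and rank 14541 (SD, n = 6 libraries each). The order Egr4, Bcl6b, Pou3f1, Lhx1 held in each of the 6 libraries, and only between Pou3f1 and Lhx1 did the ranges over libraries overlap, at 0.289 to 2.05 and 0.0603 to 0.630 RPKM. On the same scale the GDNF co-receptor gene Gfra1 stood at 30.4 ± 10.8 and Ret at 19.1 ± 7.59 (SD, n = 6 libraries each), between Egr4 and Bcl6b. Among the 6 libraries CPM varied 2.82-fold for Bcl6b, 5.13-fold for Egr4, 7.07-fold for Pou3f1 and 10.4-fold for Lhx1.

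**Figure D1:**
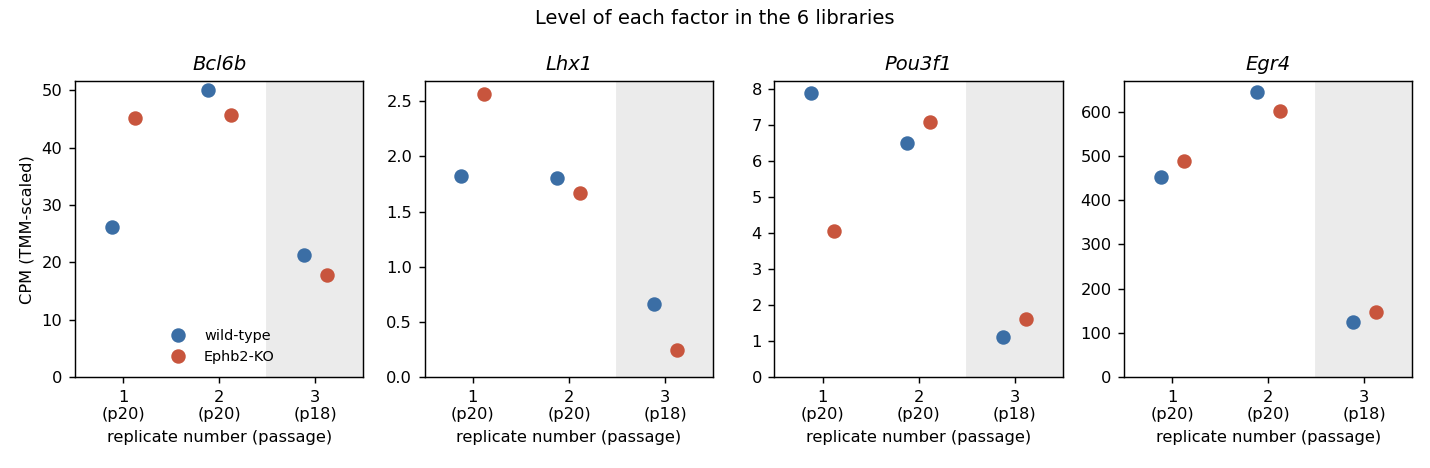
CPM (TMM-scaled, linear axes from 0) of Bcl6b, Lhx1, Pou3f1 and Egr4 against replicate number, with 1 point per library, blue for wild-type and red for Ephb2-KO, and the passage 18 libraries on grey. Egr4 sits at 125 and 148 CPM at passage 18 and between 452 and 643 CPM at passage 20, and all 4 factors are lowest in the grey column.

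The libraries labelled Ephb2-KO were compared with the wild-type libraries to ask whether the factors depend on the targeted receptor. None of the 4 passed in that comparison, and the ranges of the groups overlapped for each. For Egr4, the most abundant, wild-type lines 1 to 3 had 452, 643 and 125 CPM and the lines labelled Ephb2-KO had 488, 602 and 148 CPM. In both groups replicate 2 was the highest and replicate 3 the lowest. Its log2 fold change was 0.02 (SE 0.68; edgeR quasi-likelihood, adjusted p = 1.0 by Benjamini-Hochberg), and -0.0075 when libraries were scaled by total counts alone.

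Same-numbered libraries deviated together over all genes, so a blocked fit, with the line number as a term, is given beside the other. With the block, Egr4 had a log2 fold change of 0.08 (SE 0.12, edgeR adjusted p = 0.886). The 95% interval of its fold ran from 0.884 to 1.27, the narrowest of the 4.

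Wild-type lines 1 to 3 had 26.2, 49.96 and 21.4 CPM of Bcl6b, and the lines labelled Ephb2-KO had 45.1, 45.7 and 17.7 CPM. Wild-type replicate 1 was low among the passage 20 libraries, and the pairs differed by 0.78, -0.13 and -0.27 on the log2 scale. The fold change was 0.15 in log2 without the block (SE 0.47, edgeR adjusted p = 1.0) and 0.14 with it (SE 0.20, adjusted p = 0.888), with a blocked 95% interval of the fold from 0.811 to 1.49.

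Wild-type lines 1 to 3 had 7.87, 6.505 and 1.11 CPM of Pou3f1, and the lines labelled Ephb2-KO had 4.06, 7.07 and 1.62 CPM. The library labelled Ephb2-KO was lower in pair 1 and higher in pairs 2 and 3. The log2 fold change was -0.28 (SE 0.80, edgeR adjusted p = 1.0), and with the block -0.17 (SE 0.31, adjusted p = 0.916), with a fold between 0.555 and 1.42 at 95% confidence.

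Lhx1 rested on few reads, namely 68, 46 and 16 for wild-type lines 1 to 3, and 91, 37 and 5 for the lines labelled Ephb2-KO. In CPM these were 1.82, 1.803 and 0.660 against 2.56, 1.67 and 0.246. The 95% Poisson intervals, which cover counting error only, were 0.377 to 1.07 CPM in wild-type replicate 3 and 0.0797 to 0.573 CPM in Ephb2-KO replicate 3, and they overlapped. The log2 fold change was 0.07 without the block (SE 0.81, edgeR adjusted p = 1.0) and -0.14 with it (SE 0.42, adjusted p = 0.953), and its fold lay between 0.481 and 1.72 in the blocked interval. In the blocked fit a 2-fold loss of Lhx1 was therefore within the interval, unlike for the other 3 factors. Without the block the standard errors were larger, at 0.68 for Egr4 and 0.80 for Pou3f1. That fit does not exclude such a loss for these 2 factors either.

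Across 15263 tested genes this comparison called 0 genes, 0% of those tested, by edgeR without the block, with 32 (0.21%) at an unadjusted p under 0.05. The blocked fit called 4 (0.0262%) and DESeq2 called 4 (0.0263%), and none of the 4 factors was among them. Exact two-sided permutation tests of log2 CPM gave p = 1.0 for Bcl6b, 0.8 for Lhx1, 0.9 for Pou3f1 and 0.8 for Egr4, where 3 libraries against 3 cannot go below 0.1. Without the block the sign of Bcl6b, Lhx1 and Egr4 turned negative when wild-type replicate 3 was left out (-0.071, -0.26 and -0.41), and likewise for Ephb2-KO replicate 1 (-0.036, -0.58 and -0.12) or 2 (-0.049, -0.0050 and -0.36). That of Pou3f1 turned positive without wild-type replicate 1 (0.16) or Ephb2-KO replicate 3 (0.10).

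The passage 18 libraries were compared with the passage 20 libraries with the group as covariate, since passage was crossed with group. Passage 18 is the earlier passage. Below, a fall, drop or decrease means lower at passage 18 than at passage 20, and a rise means higher. All 4 factors were lower at passage 18 and passed the test, against 10.1% of 15920 tested genes called lower (25.3% were called in either direction, with 15.2% higher). These were 1603 lower and 2417 higher genes, and 2143 lower and 2077 higher with libraries scaled by total counts. DESeq2 called all 4 lower too, beside 14.8% of genes. These standard errors, p-values and call counts take the 6 libraries as independent, although same-numbered libraries deviate together and by number the contrast is 1 set against 2. With same-numbered libraries summed into 3 sets, a fit added after the data were seen, Egr4 passed (-2.01, SE 0.36, edgeR adjusted p = 0.0104), while Pou3f1 (-2.25, SE 0.69), Bcl6b (-1.08, SE 0.36) and Lhx1 (-2.05, SE 0.86) did not (adjusted p = 0.0859, 0.113 and 0.193). Egr4 fell from 546 ± 90.8 CPM (SD, n = 4 libraries) to 136 ± 15.8 CPM (SD, n = 2 libraries). The log2 fold change was -2.01 (SE 0.22, edgeR adjusted p = 0.00117), a decrease of 4.03-fold with a 95% interval from 2.82 to 5.74. Pou3f1 fell from 6.38 ± 1.64 to 1.37 ± 0.358 CPM (SD, n = 4 and n = 2 libraries), with a log2 fold change of -2.21 (SE 0.44, edgeR adjusted p = 0.0119). Its decrease was 4.63-fold, with a 95% interval from 2.28 to 9.44.

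Lhx1 fell from 1.96 ± 0.407 to 0.453 ± 0.293 CPM (SD, n = 4 and n = 2 libraries), a log2 fold change of -2.14 (SE 0.58, edgeR adjusted p = 0.0342). Its decrease of 4.39-fold had the widest 95% interval of the 4, from 1.72 to 11.2. Bcl6b fell least, from 41.7 ± 10.6 to 19.6 ± 2.57 CPM (SD, n = 4 and n = 2 libraries), with a log2 fold change of -1.09 (SE 0.29, edgeR adjusted p = 0.0336) and a decrease of 2.13-fold (95% interval 1.32 to 3.43). Wild-type replicate 1 at 26.2 CPM lay only a little above the passage 18 libraries at 21.4 and 17.7 CPM.

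For each factor both passage 18 libraries lay below all 4 passage 20 libraries, an arrangement that 25.9% of the 15920 tested genes showed. In exact two-sided permutation tests over the 6 libraries, likewise taken as independent, p was 0.0667 for each factor, the smallest that 2 libraries against 4 allow. The drop was present in both groups: replicate 3 minus the mean of replicates 1 and 2 was -2.11 and -1.88 in log2 CPM for Egr4 in the wild-type and Ephb2-KO lines, -2.61 and -1.68 for Pou3f1, -1.36 and -2.75 for Lhx1, and -0.76 and -1.35 for Bcl6b. The test of a difference between the groups in this drop (an interaction term, added after the data were seen) called 0 of 15920 genes (0%), with 27 (0.17%) at an unadjusted p under 0.05, and gave unadjusted p of 0.419 for Bcl6b, 0.194 for Lhx1, 0.340 for Pou3f1 and 0.617 for Egr4. Lines 2 and 1 of a group, both at passage 20, differed by between -0.60 (Lhx1, lines labelled Ephb2-KO) and 0.93 (Bcl6b, wild-type lines). For Bcl6b in the wild-type lines this exceeded the passage difference in size.

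The calls rested on few libraries. Without both libraries numbered 1 the log2 fold changes were -2.20 for Egr4, -2.33 for Pou3f1, -1.95 for Lhx1 and -1.30 for Bcl6b. Without wild-type replicate 3 none of the 4 passed, with log2 fold changes of -1.89 for Egr4 (edgeR adjusted p = 0.0616), -1.78 for Pou3f1 (0.238), -3.09 for Lhx1 (0.157) and -1.36 for Bcl6b (0.199). Without Ephb2-KO replicate 3 only Egr4 passed, at -2.13 (edgeR adjusted p = 0.0424), beside -2.69 for Pou3f1 (0.111), -1.46 for Lhx1 (0.355) and -0.84 for Bcl6b (0.348). In both fits passage 18 was left with 1 library, assumed to vary like the others. Bcl6b also missed the threshold without wild-type replicate 2 (-0.89, edgeR adjusted p = 0.0769), Ephb2-KO replicate 1 (-1.07, 0.0560) or Ephb2-KO replicate 2 (-1.06, 0.0692), and Lhx1 without wild-type replicate 2 (-2.26, 0.0575) or Ephb2-KO replicate 2 (-2.17, 0.0557). The same limit holds for the other genes: of 35 that passed for passage and were followed through these fits, 3 passed without wild-type replicate 3 (Fosb, Dcn and Pdgfra), 2 without Ephb2-KO replicate 3 (Dcn and Pdgfra) and 12 in the fit of 3 sets (Ret, Pik3r1, Egr2, Egr3, Fosb, Junb, Lhx9, Ldb2, Kit, Dcn, Pdgfra and Lama5). Rises and falls of single genes named below refer to the fit of 6 libraries.

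**Figure D2:**
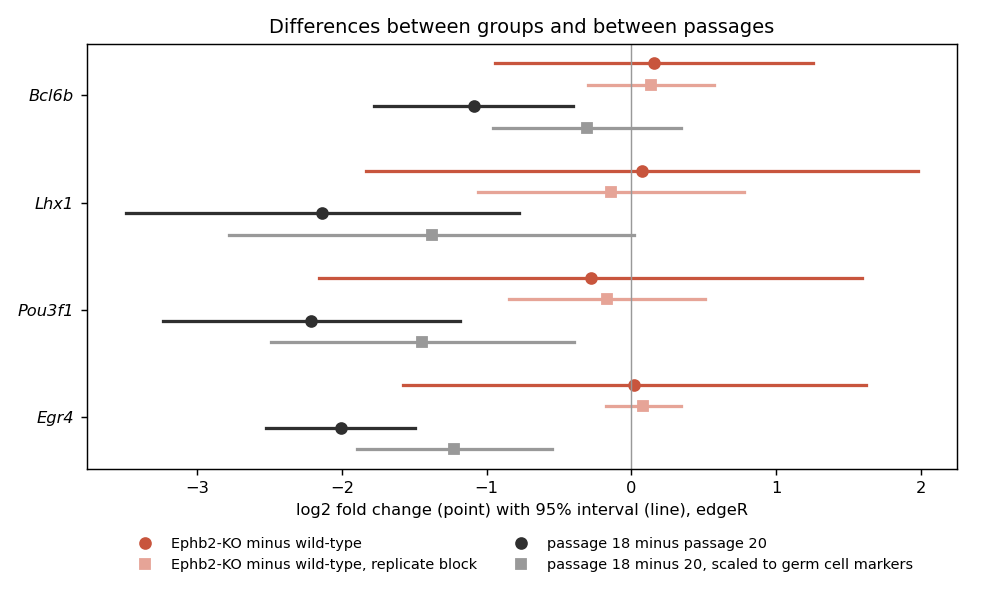
Log2 fold changes (points) and 95% intervals (lines) from edgeR for Bcl6b, Lhx1, Pou3f1 and Egr4, for Ephb2-KO minus wild-type without and with the replicate block, and for passage 18 minus passage 20 with TMM scaling and scaled to germ cell markers. Every interval of the group comparison includes 0, the TMM passage values lie at -1.09, -2.14, -2.21 and -2.01, and the values scaled to germ cell markers lie nearer to 0.

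Cell type markers moved with passage as well. Of 5 germ cell markers 3 fell at passage 18 and 0 rose, where 10.1% of all genes fell and 15.2% rose. Log2 fold changes were -0.76 for Dazl (SE 0.19), -0.79 for Sall4 (SE 0.21) and -0.84 for Zbtb16 (SE 0.20), which passed, and -0.88 for Lin28a (SE 0.29) and -0.78 for Ddx4 (SE 0.46), which did not (edgeR adjusted p = 0.0603 and 0.255). Of 10 fibroblast markers 8 rose and 0 fell (list median 2.28, beside -0.07 over all tested genes), and their summed level was 3537 to 6945 CPM at passage 20 and 18868 to 22982 CPM at passage 18. The matrix proteoglycan gene Dcn stood at 213 to 295 CPM in the passage 20 libraries and at 2344 and 2348 CPM at passage 18. None of the fibroblast markers was at 0 in any library. The part of this change in the values of the 4 factors was not tested, and in these bulk samples fewer cells of a type and less RNA per cell cannot be told apart.

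Libraries were therefore also scaled to the summed counts of the 5 germ cell markers, an alternative added after the data were seen. That scaling moved the median log2 fold change of all tested genes from -0.07 to 0.72, and the calls from 1603 lower and 2417 higher genes to 81 lower (0.509%) and 6694 higher (42%). Egr4 and Pou3f1 were among the 81. Egr4 had -1.23 (SE 0.34, edgeR adjusted p = 0.00151) and Pou3f1 -1.45 (SE 0.53, adjusted p = 0.0190). Lhx1 had -1.38 (SE 0.71, edgeR adjusted p = 0.107) and Bcl6b -0.31 (SE 0.33, adjusted p = 0.488), neither past the threshold.

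Per 1000 germ marker reads, Egr4 stood at 224, 289, 183 and 301 in wild-type replicates 1 and 2 and Ephb2-KO replicates 1 and 2, and at 89.1 and 126 in the wild-type and Ephb2-KO libraries of passage 18. Lhx1 stood at 0.810 to 0.962 at passage 20 and at 0.470 and 0.209 at passage 18. Pou3f1 stood at 1.52 to 3.89 at passage 20 and at 0.793 and 1.38 at passage 18. For Egr4, Lhx1 and Pou3f1 these passage 18 values lay below the passage 20 range. For Bcl6b they did not: its passage 18 values of 15.2 and 15.1 lay inside the passage 20 range of 12.9 to 22.9. The share of all genes with both passage 18 values below the passage 20 range was not counted on this scale. For Pou3f1 the gap was narrow, at 1.38 against 1.52 in Ephb2-KO replicate 1. That library had the largest share of germ marker counts, 0.285%, and so the largest divisor.

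The decrease in Bcl6b was smaller than in the other factors as a value. Relative to Bcl6b in the same library, the passage difference was -0.94 in log2 for Egr4, -1.002 for Lhx1 and -1.09 for Pou3f1. Exact two-sided permutation tests over 6 libraries gave p = 0.0667, 0.133 and 0.267, and 0.2, 0.2 and 0.267 after Benjamini-Hochberg adjustment over these 3 tests.

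Of the signalling genes upstream, Ret fell and Gfra1 did not pass with TMM scaling. Wild-type lines 1 to 3 had 135.5, 209.9 and 72.9 CPM of Ret, and the lines labelled Ephb2-KO had 163.5, 181.3 and 77.85 CPM, lowest at passage 18 in both groups. Its passage log2 fold change was -1.20 (SE 0.21, edgeR adjusted p = 0.00710). Gfra1 had 146.6, 245.7 and 100.01 CPM in the wild-type lines and 148.8, 232.2 and 124.7 CPM in the others, with -0.79 (SE 0.27, edgeR adjusted p = 0.0704). With libraries scaled by total counts alone Gfra1 passed (-0.87, SE 0.22, edgeR adjusted p = 0.025). Scaled to germ cell markers, Ret had -0.41 (SE 0.30, edgeR adjusted p = 0.278) and Gfra1 -0.02 (SE 0.30, adjusted p = 0.974).

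Ncam1, an alternative GDNF receptor that many other cell types also carry, rose by 1.63 in log2 (SE 0.33, edgeR adjusted p = 0.0122). Gdnf itself was low, between 0.455 and 5.90 CPM, and did not pass (-1.22, SE 1.05, edgeR adjusted p = 0.432). Of 19 adaptors and kinases between RET and the nucleus, 5 rose, 2 fell and 12 did not pass (list median -0.11), where 10.1% of all genes fell and 15.2% rose. Scaled to germ cell markers 9 of the 19 rose and 0 fell, where 42% of all genes rose and 0.509% fell. The kinase subunit genes Akt1 (0.76, SE 0.13) and Pik3r1 (1.38, SE 0.19) rose (edgeR adjusted p = 0.00675 and 0.00273). In the group comparison 0 of the 4 receptor genes and 0 of the 19 signalling genes passed, with list medians of 0.16 and 0.10 beside 0.01 over all tested genes.

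Among immediate early genes, which growth factors switch on within minutes, members went both ways between the passages. Of 12, 4 fell, 3 rose and 5 did not pass (list median 0.05), beside 10.1% and 15.2% of all genes. Scaled to germ cell markers 1 of the 12 fell and 6 rose, beside 0.509% and 42% of all genes. The 4 that fell were Fosb and the 3 EGR relatives of Egr4. Egr3 stood at 35.5, 90.5, 48.9 and 75.8 CPM in the passage 20 libraries (wild-type replicates 1 and 2, then Ephb2-KO replicates 1 and 2) and at 7.67 and 7.12 CPM at passage 18, a log2 fold change of -3.09 (SE 0.43, edgeR adjusted p = 0.00312). Its 2 lowest libraries were those in which Egr4 was lowest. Egr1 and Egr2 had -1.03 (SE 0.20) and -1.32 (SE 0.16), with edgeR adjusted p of 0.0102 and 0.00171, and Fosb had -1.49 (SE 0.22, adjusted p = 0.00425).

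Junb, an AP-1 subunit gene, went the other way, from 209 to 332 CPM at passage 20 to 796 and 911 CPM at passage 18 (1.67, SE 0.21, edgeR adjusted p = 0.00216). Scaled to germ cell markers, Egr3 fell (-2.31, SE 0.36, edgeR adjusted p = 2.64e-09), while Egr1 (-0.23, SE 0.36), Egr2 (-0.54, SE 0.30) and Fosb (-0.70, SE 0.31) did not pass (adjusted p = 0.645, 0.145 and 0.0556). Between the groups 0 of the 12 passed. Egr2 had -0.41 without the block (SE 0.47) and -0.36 with it (SE 0.12, edgeR adjusted p = 0.741).

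A list of other genes known to respond to GDNF or FGF2 was called, in either direction, about as often as genes in general. The EGR genes were counted above and not in it. Of 11 tested (the mesoderm factor gene T did not pass the filter), 2 fell at passage 18, 1 rose and 8 did not pass. The list median was -0.51, beside -0.07 over all tested genes. Of all genes 25.3% were called, with 10.1% lower and 15.2% higher at passage 18. Scaled to germ cell markers 0 of the 11 fell and 2 rose, where 42% of all genes rose. The 2 that fell were Nanos2, a translational repressor that maintains stem spermatogonia (-0.73, SE 0.19, edgeR adjusted p = 0.0303), and Id4, an inhibitor of DNA binding named after its values were seen (-0.80, SE 0.24, adjusted p = 0.0452). Bhlhe40, a circadian repressor gene, rose (0.63, SE 0.19, edgeR adjusted p = 0.0437). Nanos2 turned to 0.047 when scaled to germ cell markers.

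The ETS factor genes Etv5 and Etv4, also picked after their values were seen, were high in the libraries numbered 2 of both groups. Wild-type lines 1 to 3 had 24.7, 252 and 31.2 CPM of Etv5, and the lines labelled Ephb2-KO had 23.3, 218 and 31.9 CPM. Etv4 stood at 13.4, 84.3 and 12.3 CPM and at 19.5, 80.7 and 12.8 CPM in the same order. Neither passed for passage (log2 fold changes -2.04 and -1.98, edgeR adjusted p = 0.248 and 0.1497).

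Of 8 ERK feedback inhibitor genes 0 passed for passage (list median -0.95), where 25.3% of all genes were called. Scaled to germ cell markers 1 of the 8 rose and 0 fell, beside 42% and 0.509% of all genes. Spry4 and Dusp5 had the smallest p among the 8 with TMM scaling. They stood at 116 and 97.2 CPM and at 358 and 317 CPM in the libraries numbered 2. In the other passage 20 libraries they lay at 16.4 to 21.4 and 79.1 to 86.4 CPM, and at passage 18 at 7.66 to 8.42 and 48.8 to 50.4 CPM. In the libraries numbered 1, where Etv5 stood at 24.7 and 23.3 CPM, Egr4 stood at 452 and 488 CPM.

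**Figure D3:**
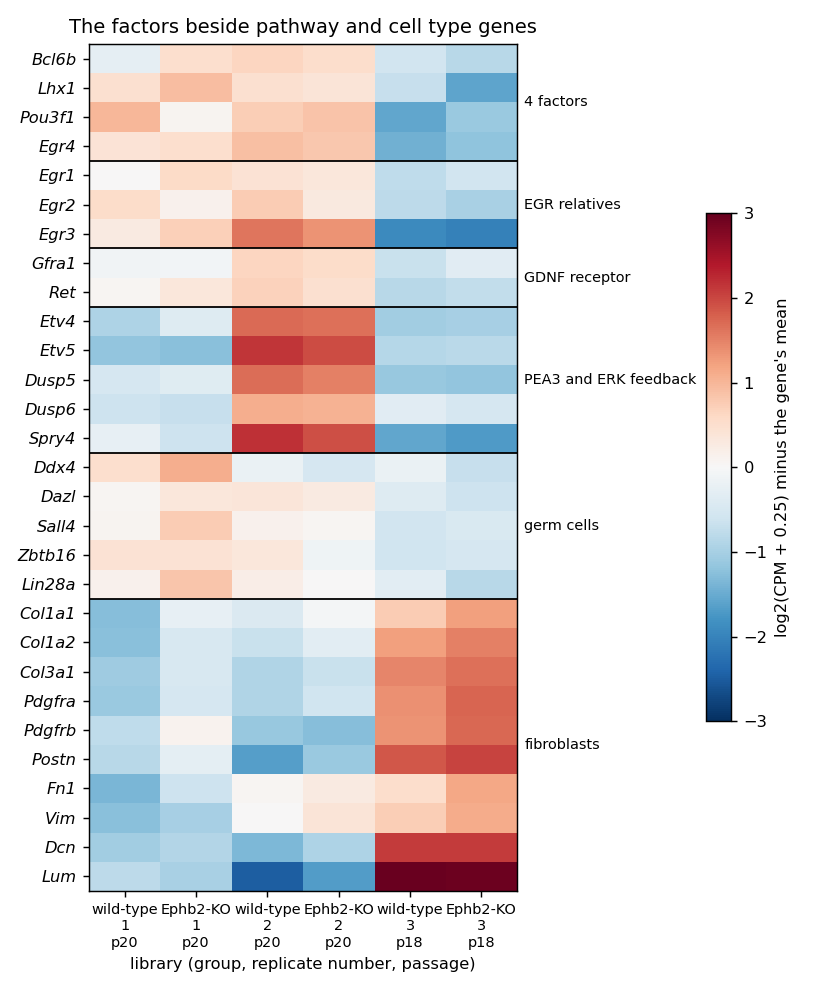
Log2(CPM + 0.25) minus each gene's mean over the 6 libraries, with colours limited to 3 in either direction, for 29 genes in rows and for the libraries in columns, ordered by replicate number. The 4 factors and the EGR relatives are lowest in the columns numbered 3, Etv4, Etv5, Dusp5, Dusp6 and Spry4 are highest in the columns numbered 2, and fibroblast markers are highest in the columns numbered 3.

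Family relatives of the factors had calls in both directions. Of 18 relatives, 15 passed the filter of the passage comparison, and of these 5 fell, 3 rose and 7 did not pass (list median -0.76), beside 10.1% and 15.2% of all genes. Scaled to germ cell markers 1 of the 15 fell and 4 rose, beside 0.509% and 42% of all genes. Beside the 3 EGR genes, Lmx1b (-2.98, SE 0.75, edgeR adjusted p = 0.0269) and Lhx5 (-1.65, SE 0.51, adjusted p = 0.04998), both LIM-homeodomain genes, were past the threshold in this fit. Lhx5 missed it without any 1 of the 6 libraries (adjusted p from 0.0584 without Ephb2-KO replicate 1 to 0.361 without wild-type replicate 3) and Lmx1b without wild-type replicate 2 (0.0526) or either passage 18 library, so both calls are weak. They were near the limit of detection, at 0.0491 to 0.675 and 0.330 to 1.58 CPM.

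The LIM-homeodomain genes Lhx8, Lhx9 and Isl1 rose by 1.56 (SE 0.42), 2.99 (SE 0.39) and 1.87 (SE 0.39), with edgeR adjusted p of 0.0336, 0.00235 and 0.0138. Lhx2, the LIM-homeodomain gene with the most reads, stood at 14.0 to 15.6 CPM at passage 20 and at 9.12 and 8.35 CPM at passage 18 (-0.76, SE 0.24, edgeR adjusted p = 0.0533), and it turned to 0.030 when scaled to germ cell markers. Bcl6, the relative of Bcl6b, lay between 24.9 and 43.5 CPM and did not pass (-0.01, SE 0.27). It rose by 0.79 when scaled to germ cell markers (SE 0.32, edgeR adjusted p = 0.0308). Pou3f2, Pou3f3 and Pou3f4 reached at most 0.777, 0.274 and 0.246 CPM, against up to 7.87 CPM for Pou3f1, so Pou3f1 was the class III POU gene with the most reads.

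Of 6 partner proteins of LIM-homeodomain and EGR factors, 1 passed for passage: Ldb2, a LIM domain-binding cofactor gene, rose from between 1.04 and 3.83 CPM to 17.8 and 19.9 CPM (3.04, SE 0.50, edgeR adjusted p = 0.00623). The long noncoding gene Lhx1os, which starts beside Lhx1 on the opposite strand, was picked with its values known. It had 1.42, 1.45 and 1.69 CPM in wild-type lines 1 to 3 and 1.75, 0.720 and 1.13 CPM in the lines labelled Ephb2-KO, and did not pass (passage log2 fold change 0.05, SE 0.50, edgeR adjusted p = 0.952). In the germ line, Kit, a receptor gene of differentiating spermatogonia, fell at passage 18 (-1.74, SE 0.28, edgeR adjusted p = 0.00523). It was the only one of 5 tested differentiation markers to pass with TMM scaling, where 10.1% of all genes fell and 15.2% rose. Of the 5, 2 had log2 fold changes above 0 (list median -0.18). Scaled to germ cell markers 2 of the 5 rose and 1 fell, beside 42% and 0.509% of all genes.

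Likeness of pattern was measured as the root mean square difference between centred log2 CPM values over the 6 libraries, across 13747 other genes with a mean of at least 1 CPM. Egr4 was the third nearest gene to Pou3f1 (0.33), after B3galt5 (0.30) and Col22a1 (0.33) and before Rsph4a (0.34), where the median gene differed by 1.09. In the reverse direction Pou3f1 ranked 58 for Egr4, whose nearest genes were Lama5, a laminin chain gene (0.18), the transporter gene Slc16a6 (0.19), Syn1 (0.20) and Shroom3 (0.22). Lhx1 had Dpcr1 (0.18), the protease-activated receptor gene F2rl1 (0.22), Gpr3 (0.22) and Kcnk3 (0.28) as its nearest genes, and Egr4 ranked 91. Bcl6b had Rasl10b (0.06), the amino acid transporter gene Slc43a1 (0.06), Frrs1l (0.10) and Rnf224 (0.11). The other 3 factors ranked between 3955 and 8480 for Bcl6b, at differences of 0.50 to 0.76 where the median gene stood at 0.66. These are descriptions over 6 libraries that share their library scaling, and Lhx1 carries counting error from as few as 5 reads.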

How the data were processed

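Polyadenylated RNA of 6 subcloned lines was compared between 3 wild-type lines and 3 carrying the Ephb2-KO label. The deposited files give raw counts by gene name, beside summed exon lengths, which were used for RPKM. Per the file headers, featureCounts 1.4.6-p4 was run by the authors on a merged alignment of each library, with GENCODE vM3 and strand setting 2, so antisense genes are kept apart, and without options for read pairs or multi-mapping reads, so near-identical copies are undercounted. The submitters' processing notes list STAR, FastQC and build GRCm38.p3 without versions of these tools. The files held 0 columns of another series.

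Counts were filtered with filterByExpr, scaled by TMM and tested with glmQLFit and glmQLFTest in edgeR 4.0.16 (R 4.3.3) with Benjamini-Hochberg adjustment over all tested genes and a threshold of 0.05. All 4 factors passed both filters. DESeq2 1.42.0 was an alternative. CPM uses TMM factors of the filtered genes, and log2 CPM a prior count of 2. Standard errors are the log2 fold change over the square root of F. Scripts were tested on simulated counts of independent libraries, so that test does not cover same-numbered libraries that deviate together. Motifs were searched in RefSeq windows. Figures used matplotlib 3.10.9.

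Same-numbered libraries correlated in their deviations from group means at 0.596, 0.736 and 0.850 for numbers 1, 2 and 3, above the bound of 0.1, so the numbers were taken to pair the libraries. The pairing comes from the titles and this check. No pair of the 6 libraries agreed within sampling noise (chi-square per degree of freedom of 20.5 or more over all pairs).

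The 4 factors, the gene lists and the tests were chosen with earlier results of these data known. The rule named the 4 factors, Ephb2, Gfra1, Ret, tested relatives, up to 2 genes per list with the smallest p in each comparison, and 4 genes of like pattern per factor. Not all genes so named are printed. Etv5, Etv4, Id4, Dusp6, Lin28a, Ddx4 and Lhx1os fell outside it.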

Additional observations from a re-analysis of the deposited data

Results flagged for a closer look

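Among the 4 passage 20 libraries, values were compared with the nearest other value in their group, and a sample was marked when the gap, as a share of the group's range, exceeded Dixon's 95% critical value. No value of the 4 factors was marked. Lhx1 and Bcl6b came nearest to the limit, with ratios of 0.827 and 0.794. Of 53 genes checked in all 4 were marked, and chance marks about 1 in 20 groups. Slc43a1, the second nearest gene in pattern to Bcl6b, stood at 37.4 CPM in wild-type replicate 1 and at 68.0 to 69.4 CPM in the other 3. Dpcr1, the nearest to Lhx1, was at 6.23 CPM in Ephb2-KO replicate 1 against 4.20 to 4.43 CPM. Col22a1, near to Pou3f1, was at 4.59 CPM in Ephb2-KO replicate 1 against 6.59 to 6.86 CPM. Sall4, a germ cell marker used for scaling, was at 212 CPM in Ephb2-KO replicate 1 against 130 to 137 CPM.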

How the results depend on the processing

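With the replicate block, Ephb2-KO against wild-type called 4 genes instead of 0, DESeq2 called 4, and the blocked fit called 56 without replicate 1, 3 without replicate 2 and 4 without replicate 3. None of the 4 factors passed in any of these fits. Signs turned for Lhx1 with the block (-0.14) and with germ cell marker scaling (-0.10), and for Egr4 with total counts (-0.0075). With the block and without replicate 1, Bcl6b stood at -0.19, Lhx1 at -0.52, Pou3f1 at 0.27 and Ephb2 at -0.22, and without replicate 2 Lhx1 stood at -0.19. Over all fits that left out a library or a pair, log2 fold changes ranged from -0.19 to 0.61 for Bcl6b, -0.58 to 0.57 for Lhx1, -0.86 to 0.27 for Pou3f1, -0.41 to 0.51 for Egr4 and -0.40 to 0.57 for Ephb2. Without the block alone, the highest were 0.16 for Pou3f1 and 0.48 for Ephb2, and the lowest for Bcl6b was -0.071. For passage, 4020 genes were called, 6775 with germ cell marker scaling, 1015 with same-numbered libraries summed, 271 without wild-type replicate 3, 310 without Ephb2-KO replicate 3, at most 4187 without any other library, and 8556 and 6869 without both libraries numbered 1 or both numbered 2. The passage values ranged over these fits from -1.36 to -0.81 for Bcl6b, -3.09 to -1.46 for Lhx1, -2.69 to -1.78 for Pou3f1 and -2.20 to -1.78 for Egr4, and no sign of these turned. Summing gave -1.08 for Bcl6b, -2.05 for Lhx1 and -2.25 for Pou3f1, no longer called, and why was not tested. Without both libraries numbered 2, where both are high, Gdnf turned to 1.01 and Etv5 to 0.41 (without both numbered 1 they stood at -2.06 and -2.90). Bcl6 and Lhx1os, near 0 for passage, turned sign: Bcl6 to 0.0041 with RLE size factors, 0.0042 with DESeq2 and 0.79 with germ cell marker scaling, and Lhx1os to -0.061 with total counts. Without libraries they ranged from -0.29 to 0.37 (called without both libraries numbered 1, edgeR adjusted p = 0.0474) and from -0.16 to 0.39. Germ cell marker scaling gave -0.31 for Bcl6b and -1.38 for Lhx1, both no longer called, and turned Nanos2 to 0.047, Lhx2 to 0.030, Ddx4 to 0.030, Dazl to 0.024 and Sall4 to 0.020. Its cause was not tested. Over all alternatives the adjusted p of the passage calls ran from 9.98e-14 to 0.488 for Bcl6b, 0.000556 to 0.355 for Lhx1, 2.68e-13 to 0.238 for Pou3f1 and 5.36e-46 to 0.0616 for Egr4, the smallest each without both libraries numbered 1, where same-numbered libraries set the spread. Depth limits Lhx1, with as few as 5 counts in 1 library.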
